A study of Mus musculus with 6 samples.

Results

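Heat shock proteins and J-domain proteins are the molecular chaperones that help other proteins fold, refold and reach their compartments. The genes described here are those of the deposited table whose symbol starts with Hspa to Hspe, Hsph or Hsp and a digit, or with Dnaja, Dnajb or Dnajc, together with the transcription factors Hsf1 and Hsf2, and without symbols that start with Hspg or Hspb1-ap. They are 76 of the 23557 genes of the table. By family they are 2 heat shock factors, 3 HSP90 genes, 14 HSP70 genes including Hsph1, and 8 genes grouped by symbol as small heat shock proteins. The others are the 2 genes of the mitochondrial chaperonin (Hspd1 and Hspe1), 4 DNAJA, 13 DNAJB and 28 DNAJC genes. The symbol rule also takes in 2 cofactor genes, Hspbp1 and Hspbap1. Hspb11 stands with the small heat shock proteins by its symbol alone.

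The tumors were grown from CT26 cells, a BALB/c line of colon carcinoma, after injection of 500000 cells under the skin of female BALB/c mice bought at 7 weeks of age. From day 6, mice received H89, an inhibitor of protein kinase A and related kinases, at 10 mg/kg by the intraperitoneal route 2 times a week, or NaCl alone. On day 14, tumors of 3 mice per group were frozen, and their total RNA was sequenced on the BGISEQ-500 platform. The comparison of H89 with NaCl asks which transcripts of the tumor differ under treatment. Each library holds a whole tumor with all its cell types, where fewer cells of a type and less RNA per cell cannot be told apart.

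HSP70 proteins bind unfolded stretches of their clients and release them in cycles driven by ATP, J-domain proteins deliver the clients and set off ATP hydrolysis, and HSP90 finishes the folding of kinases and receptors. Heat shock factor 1 raises the inducible genes of the group under heat or protein damage, while separate sets serve the endoplasmic reticulum and the mitochondrion. Tumor cells are known for a high chaperone content, since they hold many unstable proteins.

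The total estimated count was 29067921, 27067349 and 27883614 in NaCl tumors 1 to 3 and 28548727, 31958793 and 30936962 in H89 tumors 1 to 3. Values are given as CPM, counts per 1000000 counts of a tumor, always in the order of tumors 1 to 3 of a group. Tumors with the same number in the 2 groups came from different mice and were not taken as paired. At the lowest total, 1 count is 0.0369 CPM. Of the 76 genes, 66 had a mean of at least 0.5 CPM over the 6 tumors and were tested, 10 were below it, and 2 of these 10, Dnajb8 and Dnajc5g, were at 0 in all tumors. The 76 genes took 1.077, 1.077 and 1.166% of all counts in NaCl tumors and 1.101, 1.029 and 1.125% in H89 tumors, so that the groups overlapped.

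The libraries were first compared by markers of the cell types that a tumor under the skin can hold. Among 10 epithelial genes, Krt20 was the most abundant, with 98.5, 94.0 and 96.0 CPM in NaCl and 65.1, 83.8 and 69.9 CPM in H89 tumors, and the sum of the list was 115, 109 and 122 and 82.7, 97.0 and 82.9 CPM. Krt20 and Krt18 (12.7, 13.2 and 23.1 against 8.16, 7.98 and 8.79 CPM), which make up most of that sum, were lower in each H89 tumor. Of its 6 tested genes, 4 had a log2 fold change above 0, or 3 under quantile normalization. Of these, Krt7 (0.389, 0.494 and 0.443 against 1.36, 1.36 and 0.936 CPM) and Krt19 (0.378, 0 and 0.108 against 2.49, 0.375 and 0.259 CPM) reached the minimum of 0.5 CPM for the test only through the H89 tumors, which favors folds above 0. The epithelial adhesion gene Epcam was at 0.0344, 0.0369 and 0 CPM in NaCl and 1.16, 0.0939 and 0.0970 CPM in H89 tumors, close to 0 in all but H89 tumor 1, and the intestinal factor Cdx2 was at most 0.313 CPM. H89 tumor 1 also stood apart in skeletal muscle markers, whose summed CPM over 12 genes was 4.82, 4.03 and 3.74 in NaCl and 25.4, 5.04 and 3.23 in H89 tumors. Of this list 5 genes were tested, none was at 0 in all tumors, and the most abundant, the skeletal actin gene Acta1, had 0.550, 0.185 and 0.0359 CPM in NaCl and 12.1, 0.156 and 0.453 CPM in H89 tumors. The sum of 5 erythroid genes was highest in H89 tumor 3, with 84.3, 64.5 and 104 CPM in NaCl and 29.0, 21.9 and 235 CPM in H89 tumors, of which the hemoglobin chain gene Hba-a2 gave 43.0, 32.6 and 57.5 and 14.2, 11.5 and 126 CPM. On the first principal component of the 1000 most variable genes, which held 46.3% of their variance, the NaCl tumors lay at -3.15, -12.9 and -32.0 and the H89 tumors at 23.8, 4.93 and 19.3.

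Of the immune and stromal lists, the sum of 9 T cell genes was 26.9, 15 and 12.8 CPM in NaCl and 46.4, 27.8 and 70.1 CPM in H89 tumors, with every H89 tumor above every NaCl tumor on plain CPM. The sum of 9 fibroblast genes was likewise higher in each H89 tumor, at 2719.8, 2647 and 2549 against 3637, 3631 and 3105 CPM, and Col1a2, a collagen chain, was the most abundant (1423, 1412 and 1383 against 1959.9, 1845 and 1698 CPM). Sums of 10 macrophage genes overlapped between groups (1304, 2126 and 1890.2 against 1766, 1784 and 2196 CPM, led by the complement gene C1qa with 269.6, 479 and 391 against 429.7, 361 and 489 CPM), as did those of 8 endothelial genes (107, 151 and 179 against 95.4, 146 and 120.0 CPM, led by the cadherin gene Cdh5 with 29.6, 46.0 and 58.0 against 24.9, 44.4 and 31.2 CPM). The T cell list had the coreceptor gene Cd8a as its most abundant gene (3.46, 2.26 and 2.93 against 8.51, 3.66 and 19.2 CPM), and 7 of its 9 genes were higher at an unadjusted p under 0.05, as were 4 of 9 fibroblast genes, beside 13.1% of all genes. The groups were apart on CPM for Cd8a, Cd2 and Cd247, and after TMM scaling they met for Cd8a and Cd2. With 1 tumor left out, the T cell count was 3 without NaCl tumor 2 and 4 without NaCl tumor 3, H89 tumor 1 or H89 tumor 3, and the fibroblast count was 2 without NaCl tumor 2 and 1 without H89 tumor 2. Sums of 7 B cell genes (3.61, 4.42 and 4.35 against 5.24, 7.55 and 6.68 CPM) and 8 adipocyte genes (13.2, 14.1 and 8.84 against 25.9, 15.1 and 15 CPM) were higher in each H89 tumor, with 3 genes of either list tested. The adipocyte genes Cfd (0, 0.443 and 0.0717 against 7.32, 0.313 and 0.194 CPM) and Adipoq (0.0688, 0.0369 and 0.0359 against 1.47, 0.0939 and 0.0970 CPM) were highest in H89 tumor 1, without which Cfd was not tested. Most abundant were the B cell receptor regulator Cd22 (2.26, 2.72 and 2.41 against 2.82, 3.76 and 3.93 CPM) and the lipase gene Lipe (12.4, 12.7 and 8.16 against 14.4, 14.0 and 14.2 CPM). The sum of 8 neutrophil genes (15.6, 16.9 and 20.2 against 21.6, 21 and 37.0 CPM, Ly6g at 0) followed its most abundant gene, the cytokine receptor gene Csf3r (7.37, 10.1 and 10.3 against 15, 15.4 and 24.2 CPM, unadjusted p = 0.00238). Of the 4 neutrophil genes tested 2 were above and 2 below 0, and S100a8 (1.20, 0.813 and 1.43 against 0.350, 0.219 and 1.45 CPM) and S100a9 (1.62, 1.26 and 4.12 against 0.42, 0.219 and 3.98 CPM) were those below. Keratinocyte genes were scarce (3.97, 3.00 and 4.50 against 4.85, 5.37 and 4.64 CPM over 10 genes, with Krt1, Krt15 and Dsg1a at 0, and 2.55, 1.88 and 3.30 against 3.33, 3.66 and 3.07 CPM for the keratin gene Krt10), and 10 proliferation genes overlapped (1444, 1657 and 1503 against 1548, 1801 and 1692 CPM, led by the topoisomerase gene Top2a with 312, 366 and 326 against 339, 390.1 and 427 CPM). The part of these cell types in the values of the chaperone genes was not tested.

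Levels were compared between genes as CPM per kilobase of transcript, averaged over the 6 tumors. Hsp90ab1, the constitutive cytosolic HSP90, came first with 1176, followed by the constitutive cytosolic HSP70 gene Hspa8 with 566 CPM per kilobase. Next came Hsp90b1 of the endoplasmic reticulum (324), mitochondrial Hspa9 (277), the inducible cytosolic Hsp90aa1 (243), Hspa5 of the endoplasmic reticulum (196), and the chaperonin pair Hspd1 (184) and Hspe1 (161 CPM per kilobase). The ninth gene, the splicing-associated Dnajc8, reached 69.8 CPM per kilobase. The ranges over tumors of Hsp90ab1 and Hspa8 did not meet each other or those of any other gene, whereas each gene from Hsp90b1 to Hspe1 overlapped with the next in this order. Heat-inducible Hspa1b and Hspa1a stood far lower, at 7.71 and 1.83 CPM per kilobase.

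**Figure D1:**
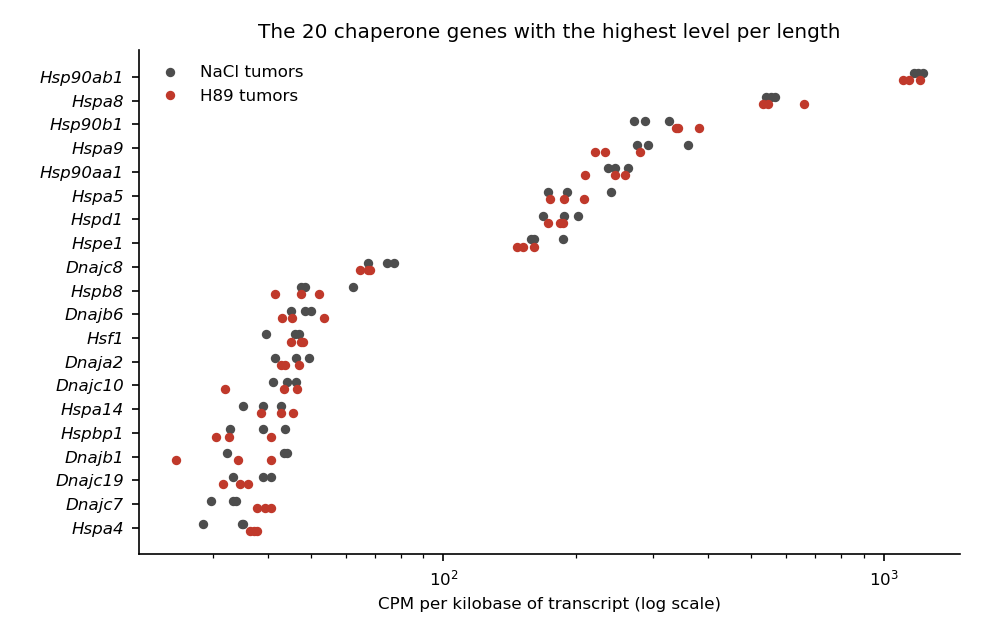
CPM per kilobase of transcript (log scale) of the 20 genes with the highest mean level, with a point for each NaCl tumor (gray) and each H89 tumor (red). The 8 genes from Hsp90ab1 (mean 1176) to Hspe1 (mean 161) lie above a gap that separates them from Dnajc8 (mean 69.8).

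The treatment was tested gene by gene with edgeR's quasi-likelihood test over 13118 genes. A log2 fold change is that of H89 against NaCl, with library sizes scaled by the TMM method, its standard error (SE) was taken as its size over the root of the test's F statistic, and adjusted p-values are Benjamini-Hochberg adjusted over all 13118 genes. Each tumor came from a mouse of its own, and the p-values measure the spread between these tumors. The exact two-sided permutation test compares group means of log2(CPM + 0.5). On plain CPM the median log2 ratio of the H89 to the NaCl mean over all genes tested was 0.0753, and after TMM scaling the median log2 fold change was 0.00403. The fold changes are therefore lower than the CPM values beside them by about that shift.

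No chaperone gene passed the adjusted threshold of 0.05 in edgeR's quasi-likelihood test (0 of 66, against 1.59% of all genes tested), and the smallest adjusted p was 0.0746. With limma on log2(CPM + 0.5) 0 passed as well. With DESeq2's Wald test on the same counts, 5 of 66 passed (Dnaja3, Dnajb12, Hspa9 and Hspb6 lower, Hspa1l higher), where 10.9% of all genes did. At an unadjusted p under 0.05 in edgeR's test, 10 of 66 were counted, or 15.2%, beside 25.0% of all genes. Of these, 4 were higher in H89 tumors (6.06%, against 13.1% of all genes) and 6 lower (9.09%, against 11.9%). None of these shares was above that of all genes. The count of 10 was 5 without H89 tumor 2, and otherwise 8 to 12 with 1 tumor left out, where the share of all genes was 18.3% without H89 tumor 2 and 18.8 to 26.3% otherwise. The 4 higher genes were 1 without NaCl tumor 2 or without H89 tumor 2, and 2 without NaCl tumor 3 or without H89 tumor 1, and the 6 lower genes were 10 without H89 tumor 1.

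Of the 66 genes, 50 had an absolute log2 fold change under 0.25 and 4 had one above 0.5 (Hspb2, Hspa1l, Hspa12a and Hspb6). Of these, Hspb2 and Hspa12a had NaCl means below the minimum of 0.5 CPM and were tested only through the H89 tumors, which favors folds above 0. The log2 fold change was below 0 for 43 genes and above 0 for 23, with a median of -0.11, against 0.00403 for all genes. That median was -0.04 without H89 tumor 2 and -0.06 without NaCl tumor 3 or under quantile normalization. On CPM, the 3 H89 values lay above the 3 NaCl values for 7 of the 66 genes (Hspa1l, Hsp90b1, Hspa4, Dnajc1, Dnajc7, Dnajc16 and Dnajc25, beside 20.5% of all genes) and below them for 4 (Dnaja3, Dnajb12, Dnajc4 and Hspb6, beside 10.0%), together 11 of 66 beside 30.5% of all genes. On CPM with TMM-scaled library sizes the split turned round, to 4 genes above (15.2% of all genes) and 7 below (15.5% of all genes).

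**Figure D2:**
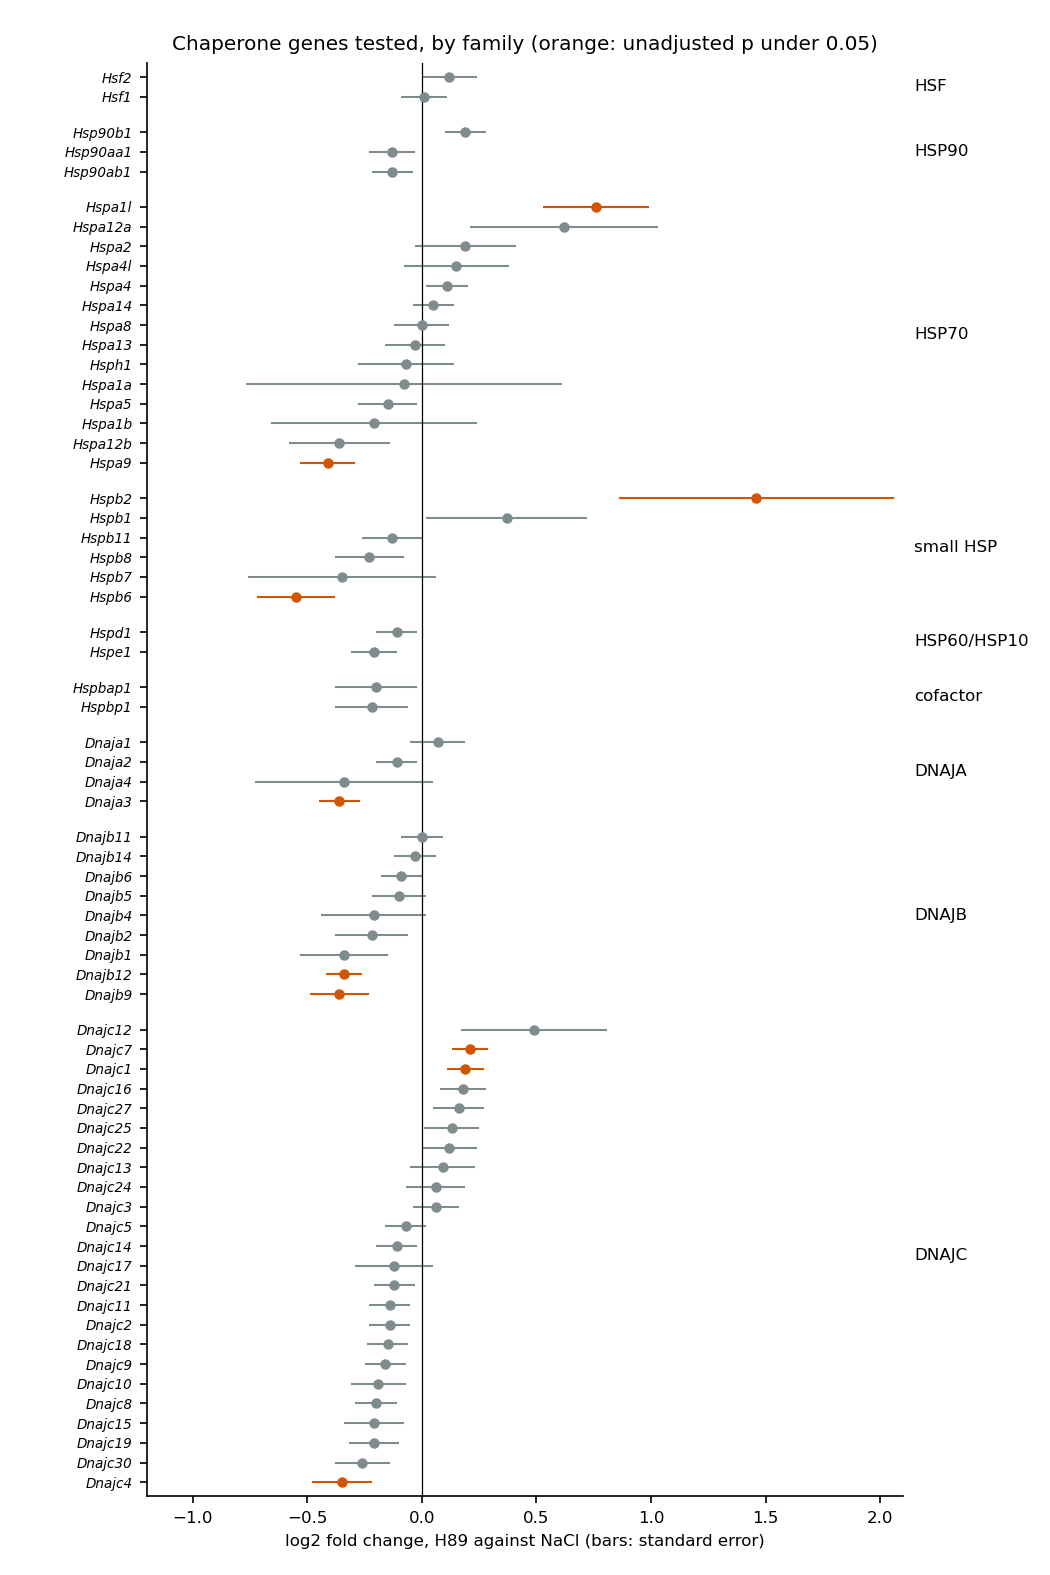
Log2 fold change of H89 against NaCl with its standard error for the 66 genes tested, grouped by family; orange marks an unadjusted p under 0.05 in edgeR's quasi-likelihood test. Most points lie within 0.25 of 0, and the 10 orange genes are spread over 5 families.

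Among the regulators, Hsf1, the factor that drives the heat shock response, had 97.9, 96.1 and 82.5 CPM in NaCl and 100.2, 99.0 and 93.8 CPM in H89 tumors. NaCl tumor 3 was the lowest, and the other 5 tumors lay within 93.8 to 100.2 CPM. Its log2 fold change was 0.01 (SE 0.10, unadjusted p = 0.887), and it was from -0.06 to 0.08 with 1 tumor left out (below 0 without NaCl tumor 3 or H89 tumor 1). Hsf2, which binds the same elements and is better known from development, had 11.8, 14.4 and 14.2 CPM in NaCl and 13.7, 15.8 and 16.6 CPM in H89 tumors, also with overlapping groups (log2 fold change 0.12, SE 0.12, unadjusted p = 0.351; 0.05 without NaCl tumor 1 and 0.06 under quantile normalization). The mRNA levels of these factors say nothing of their activity, which is set mainly by their state as proteins.

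The HSP90 genes together reached 4667, 4544 and 4800.3 CPM in NaCl and 4798, 4444 and 4804 CPM in H89 tumors. Hsp90ab1 was the steadiest of them, with 3095, 2958 and 3023 CPM in NaCl and 3041, 2792 and 2876 CPM in H89 tumors. H89 tumor 2 was the lowest, and the H89 values overlapped the NaCl values at H89 tumor 1 (log2 fold change -0.13, SE 0.09, unadjusted p = 0.213; -0.05 under quantile normalization). Hsp90b1, which encodes GRP94 of the endoplasmic reticulum and folds integrins and Toll-like receptors, had 766, 809.6 and 919 CPM in NaCl and 953, 963 and 1077 CPM in H89 tumors. All 3 H89 tumors lay above all 3 NaCl tumors, although after TMM scaling the groups met (log2 fold change 0.19, SE 0.09, unadjusted p = 0.0750, exact two-sided permutation p = 0.1), and under quantile normalization the log2 fold change was 0.43. That permutation p is the smallest that 3 tumors against 3 allow, so the exact test cannot reach 0.05 here. The median of the 3 HSP90 genes was -0.13 under TMM scaling and 0.08 under quantile normalization, so that its direction depended on the scaling, and it was -0.04 without H89 tumor 2.

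Hspa8 encodes the constitutive cytosolic HSP70, which folds new chains and uncoats clathrin vesicles. It had 1325, 1295 and 1355 CPM in NaCl and 1575, 1271 and 1309 CPM in H89 tumors, with H89 tumor 1 above all others and the remaining 5 within 1271 to 1355 CPM. Its log2 fold change was 0.00 (SE 0.12), from -0.14 (without H89 tumor 1) to 0.06 (without H89 tumor 2 or 3) with 1 tumor left out, and under quantile normalization it was 0.26. Hspa9, or mortalin, which pulls proteins into the mitochondrial matrix, had 842, 889 and 1094 CPM in NaCl and 674, 709.6 and 853 CPM in H89 tumors. H89 tumors 1 and 2 lay below all NaCl tumors, while H89 tumor 3 lay between NaCl tumors 1 and 2, and after TMM scaling the groups were apart. The log2 fold change was -0.41 (SE 0.12, unadjusted p = 0.00987, exact permutation p = 0.2), with an adjusted p of 0.102 in edgeR's quasi-likelihood test and 0.0211 in DESeq2's, and under quantile normalization the log2 fold change was -0.18.

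Hspa1a, Hspa1b and Hspa1l lie side by side on chromosome 17 (GENCODE M21 on GRCm38), at chr17:34969190-34972156 and chr17:34956436-34959238 on the minus strand and chr17:34972703-34979285 on the plus strand. Hspa1a and Hspa1b are the stress-inducible HSP70 genes and differ little in sequence, so that the split of their reads is uncertain, and Hspa1l is a relative best known from the testis. The 250 bases before each start come from RefSeq on GRCm38.p6. They are shown because Hspa1a and Hspa1b are known targets of heat shock factor 1 and Hspa1l lies beside them. Capitals mark the 2-unit heat shock element, GAA and its reverse complement TTC with 2 bases between them in either order, GAANNTTC or TTCNNGAA, each its own reverse complement and so searched on both strands at once. Coordinates are chr17:34972157-34972406 and chr17:34959239-34959488, minus strand, and chr17:34972453-34972702, plus strand, and none of the windows holds an annotated exon.
Hspa1a: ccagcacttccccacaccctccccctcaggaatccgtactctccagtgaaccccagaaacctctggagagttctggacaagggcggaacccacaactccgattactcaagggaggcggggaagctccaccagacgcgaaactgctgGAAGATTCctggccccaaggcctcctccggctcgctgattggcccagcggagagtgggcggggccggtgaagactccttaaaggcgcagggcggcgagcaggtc
Hspa1b: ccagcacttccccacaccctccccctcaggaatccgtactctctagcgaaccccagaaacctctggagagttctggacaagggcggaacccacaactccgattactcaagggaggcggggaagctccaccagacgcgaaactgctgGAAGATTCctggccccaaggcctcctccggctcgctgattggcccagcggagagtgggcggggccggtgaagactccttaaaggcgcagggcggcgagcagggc
Hspa1l: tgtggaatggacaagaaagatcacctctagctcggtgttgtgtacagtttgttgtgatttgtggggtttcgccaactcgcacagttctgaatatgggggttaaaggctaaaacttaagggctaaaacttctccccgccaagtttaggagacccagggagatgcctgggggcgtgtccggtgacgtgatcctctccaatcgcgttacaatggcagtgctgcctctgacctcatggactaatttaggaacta

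The windows of Hspa1a and Hspa1b, taken to 50 bases after the start, differed at 4 of 300 positions and hold the element at the same place, from 104 to 97 bases before the start. The window of Hspa1l, whose start lies 547 bases from that of Hspa1a on the other strand, has no match. Hspa1a had 5.15, 1.58 and 9.50 CPM in NaCl and 3.06, 2.55 and 10.8 CPM in H89 tumors, and Hspa1b had 25.0, 11.1 and 31.6 and 17.5, 11.1 and 33.2 CPM. Both were highest in tumor 3 and lowest in tumor 2 of either group, and the groups covered the same range. Their sum, which does not depend on how reads were split between them, was 30.2, 12.6 and 41.1 CPM in NaCl and 20.6, 13.7 and 44.0 CPM in H89 tumors. The log2 fold changes were -0.08 (SE 0.69) and -0.21 (SE 0.45), neither sign of which was kept when single tumors were left out (without NaCl tumor 3 they were 0.58 and 0.10, without H89 tumor 2 they were 0.26 and 0.08, and without H89 tumor 3 they were -1.0 and -0.70).

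Hspa1l followed another order of tumors than its neighbors. Its CPM was 5.59, 4.95 and 3.82 in NaCl and 10.3, 8.11 and 7.11 in H89 tumors. Every H89 tumor lay above every NaCl tumor. The log2 fold change of 0.76 (SE 0.23, unadjusted p = 0.00988, exact permutation p = 0.1) had an adjusted p of 0.102 in edgeR's quasi-likelihood test and 0.0304 in DESeq2's, and lay between 0.57 and 0.91 with 1 tumor left out. An exon of Hspa1l overlaps one of Gm10501 on the other strand, and whether the counting used strand is not given in the sources used here.

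Hsph1, the HSP110 that drives nucleotide exchange on HSP70, had 129.7, 110.1 and 147 CPM in NaCl and 152, 89.8 and 145 CPM in H89 tumors. H89 tumor 2 was the lowest and H89 tumor 1 the highest of all 6 (log2 fold change -0.07, SE 0.21; -0.24 without H89 tumor 1, 0.14 without H89 tumor 2 and 0.03 without NaCl tumor 3). Hspa12a, a distant relative of HSP70, was near the detection limit, at 0.585, 0.296 and 0.610 CPM in NaCl and 1.05, 0.814 and 0.550 CPM in H89 tumors, or 17, 8 and 17 and 30, 26 and 17 counts, with means of 0.497 and 0.805 CPM, so that it reached the minimum of 0.5 CPM through the H89 tumors. H89 tumor 3 lay among the NaCl tumors (log2 fold change 0.62, SE 0.41, unadjusted p = 0.165). That value was 0.35 without NaCl tumor 2, without H89 tumor 1 or with limma on log2(CPM + 0.5), and 0.14 under quantile normalization. Over the 14 HSP70 genes the sum was 3220.0, 3317 and 3831 CPM in NaCl and 3419, 3061 and 3455 CPM in H89 tumors, and the median log2 fold change was -0.02, or 0.03 under quantile normalization, and from -0.06 to 0.09 with 1 tumor left out (above 0 without NaCl tumor 3, H89 tumor 1 or H89 tumor 2).

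Hspd1 and Hspe1 encode HSP60 and its lid HSP10, which fold proteins in the mitochondrial matrix. They are transcribed away from each other on chromosome 1, at chr1:55077835-55088243 (minus strand) and chr1:55088132-55091307 (plus strand), and exons of both overlap. Upstream of the Hspe1 start, inside an annotated exon of Hspd1, lies a run of heat shock units with a pair of overlapping 3-unit elements. It is shown in capitals, within 30 bases, because it is the longest run in the windows of these genes, at chr1:55088053-55088082 (GRCm38.p6), plus strand.
Hspd1 and Hspe1: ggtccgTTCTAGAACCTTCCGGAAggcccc

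Hspd1 had 407, 455 and 490.2 CPM in NaCl and 419.7, 446 and 453 CPM in H89 tumors, and Hspe1 had 122, 125 and 145 and 125, 114 and 117 CPM. For both genes NaCl tumor 3 was the highest, and the H89 tumors overlapped NaCl tumors 1 and 2. The log2 fold changes were -0.11 (SE 0.09, unadjusted p = 0.264) and -0.21 (SE 0.10, unadjusted p = 0.0729). Without NaCl tumor 3 they were -0.05 and -0.13, and under quantile normalization that of Hspd1 was 0.08.

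Small heat shock proteins hold unfolding proteins in a soluble state without using ATP, and several of them are most abundant in muscle. Hspb8, a partner of the co-chaperone Bag3 in autophagy, had 113, 86.2 and 88.3 CPM in NaCl and 94.9, 75.3 and 86.3 CPM in H89 tumors, with overlapping groups (log2 fold change -0.23, SE 0.15, unadjusted p = 0.153; -0.08 without NaCl tumor 1, -0.14 without H89 tumor 2 and -0.35 without H89 tumor 1). Hspb6 (HSP20, chr7:30552178-30555443), known from smooth muscle as a target of protein kinase A, had 53.3, 42.7 and 32.9 CPM in NaCl and 29.8, 30.8 and 32.1 CPM in H89 tumors. The 3 H89 tumors lay within 29.8 to 32.1 CPM and below all NaCl tumors, with NaCl tumor 3 only just above them. For Hspb6 the log2 fold change was -0.55 (SE 0.17, unadjusted p = 0.0117, exact permutation p = 0.1), with an adjusted p of 0.108 in edgeR's quasi-likelihood test and 0.0300 in DESeq2's, and -0.35 without NaCl tumor 1, the highest. Exons of Hspb6 overlap those of Gm38670, Lin37 and Proser3. The sum of 10 smooth muscle and pericyte genes was 57.4, 64.7 and 88.1 CPM in NaCl and 53.4, 66.7 and 50 CPM in H89 tumors, led by the pericyte gene Rgs5 (13.9, 20.1 and 30 against 10.7, 21.4 and 15.6 CPM) and highest in NaCl tumor 3. Of the 9 genes of that list tested, 7 had a log2 fold change below 0, or 5 without NaCl tumor 3. Of these 9, 1, the potassium channel gene Kcnj8, was lower at an unadjusted p under 0.05, beside 25.0% of all genes (11.9% lower). The lower count was 2 without NaCl tumor 1 and 3 without H89 tumor 2. The part of smooth muscle cells and pericytes in the value of Hspb6 was not tested.

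Hspb2, a muscle-enriched member (chr9:50751078-50752354) whose exons overlap those of its neighbor Cryab on the other strand, had 0.550, 0.333 and 0.108 CPM in NaCl and 1.51, 0.876 and 0.517 CPM in H89 tumors, or 16, 9 and 3 and 43, 28 and 16 counts. H89 tumor 1, the library with the highest sum of skeletal muscle genes, was the highest, and H89 tumor 3 lay below NaCl tumor 1. The log2 fold change was 1.46 (SE 0.60, unadjusted p = 0.0412), the largest among the 66 genes. It was 0.53 under quantile normalization, 0.77 with limma on log2(CPM + 0.5), and 1.05 to 2.07 in the fits with 1 tumor left out that tested it. Hspb2 reached the minimum of 0.5 CPM through the H89 tumors, which favors a fold above 0, and without H89 tumor 1 it was below it and was not tested. The part of muscle tissue in this value was not tested. Hspb1, the widely studied HSP27, was scarce here, at 1.12, 1.29 and 2.00 CPM in NaCl and 2.80, 1.59 and 1.58 CPM in H89 tumors (named after its values were seen).

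**Figure D3:**
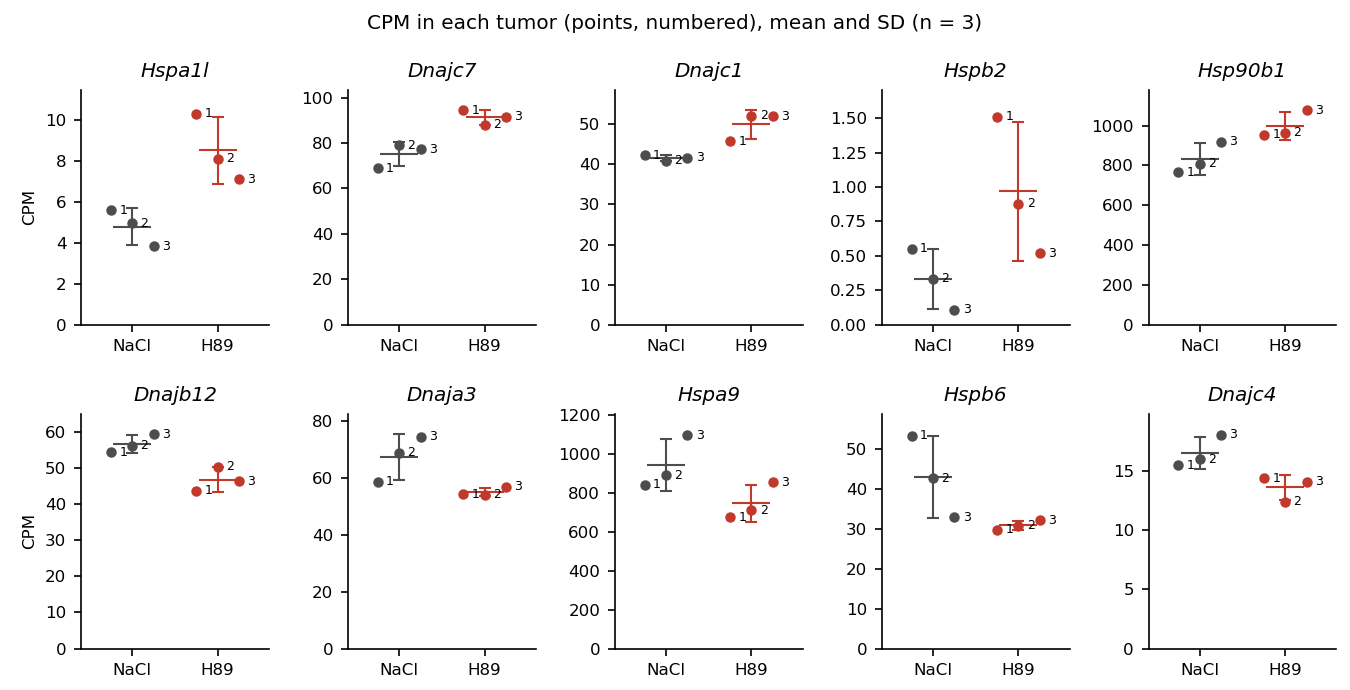
CPM in each tumor (points, numbered 1 to 3), with mean and SD (n = 3 per group), for the 5 genes with the smallest unadjusted p among those higher in H89 tumors (upper row) and among those lower (lower row); each vertical axis starts at 0. The groups meet for Hspb2 and Hspa9; the others are apart, as a choice by smallest p favors, beside 11 of all 66 genes and 30.5% of all genes tested.

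The DNAJA and DNAJB proteins are the J-domain partners closest to the bacterial DnaJ. Dnaja1 had 135, 139 and 150.2 CPM in NaCl and 173, 130.3 and 162 CPM in H89 tumors, and Dnaja2 had 121, 135 and 145 and 125, 128 and 137 CPM. The groups overlapped for both of these cytosolic genes (log2 fold changes 0.07, SE 0.12, and -0.11, SE 0.09). For Dnaja1 it was -0.05 without H89 tumor 1 and 0.18 without H89 tumor 2, and for Dnaja2 -0.05 without NaCl tumor 3 and -0.04 under quantile normalization. Dnaja3 (chr16:4639989-4707695, plus strand) encodes Tid1, the J-domain partner of mortalin in the mitochondrion, and had 58.6, 68.8 and 74.3 CPM in NaCl and 54.1, 54.0 and 56.7 CPM in H89 tumors. All H89 tumors were below all NaCl tumors and close to each other. Its log2 fold change was -0.36 (SE 0.09, unadjusted p = 0.00537, exact permutation p = 0.1), and the adjusted p was 0.0841 in edgeR's quasi-likelihood test and 0.0235 in DESeq2's. Exons of Dnaja3 overlap those of Vasn and Coro7, and reads of overlapping exons cannot be assigned with certainty.

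Dnajb1 (HSP40), the main cytosolic partner of inducible HSP70, had 132, 96.5 and 130.0 CPM in NaCl and 102, 74.0 and 121 CPM in H89 tumors. Tumor 2 was the lowest of either group, and the groups overlapped (log2 fold change -0.34, SE 0.19, unadjusted p = 0.113; -0.17 without H89 tumor 2). Dnajb6, which holds back protein aggregation, had 80.2, 72.3 and 77.9 CPM in NaCl and 69.2, 72.9 and 85.9 CPM in H89 tumors, with H89 tumors as both the lowest and the highest (log2 fold change -0.09, SE 0.09; -0.04 without NaCl tumor 1, -0.05 without H89 tumor 1 or under quantile normalization, and -0.16 without H89 tumor 3). Dnajb12 (chr10:59879556-59899302, plus strand), a membrane protein of the endoplasmic reticulum that works in the disposal of misfolded proteins, had the smallest unadjusted p of all 66 genes. Its CPM was 54.4, 56.1 and 59.4 in NaCl and 43.7, 50.4 and 46.3 in H89 tumors, with no overlap. The log2 fold change was -0.34 (SE 0.08, unadjusted p = 0.00318, exact permutation p = 0.1), and the adjusted p was 0.0746 in edgeR's quasi-likelihood test and 0.0155 in DESeq2's. Leaving out 1 tumor at a time gave log2 fold changes from -0.40 to -0.31.

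Dnajb9 (ERdj4, chr12:44205559-44210326), which is raised by the unfolded protein response and binds its sensor Ire1, had 31.2, 33.7 and 40.6 CPM in NaCl and 25.0, 26.8 and 34.5 CPM in H89 tumors. H89 tumors 1 and 2 were below all NaCl tumors, and H89 tumor 3 lay among them (log2 fold change -0.36, SE 0.13, unadjusted p = 0.0274). Of the 9 DNAJB genes tested, 8 had a log2 fold change below 0 under TMM scaling and under quantile normalization, with medians of -0.21 and -0.23, and 2 had an unadjusted p under 0.05 (22.2% beside 25.0% of all genes). The median was -0.09 without NaCl tumor 1, -0.11 without NaCl tumor 3 and -0.12 without H89 tumor 2. The sum over the family nevertheless overlapped between groups, at 460.4, 407 and 470.4 CPM in NaCl and 396, 373 and 458 CPM in H89 tumors.

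The 28 DNAJC genes share only the J domain and serve many compartments, and 24 of them were tested. Dnajc10 (ERdj5), a disulfide reductase of the endoplasmic reticulum, had 166, 179 and 187 CPM in NaCl and 129, 176 and 188 CPM in H89 tumors, where H89 tumor 1 was the lowest and the other 5 lay together (log2 fold change -0.19, SE 0.12; -0.06 without H89 tumor 1). Dnajc5, the cysteine string protein of secretory vesicles, had 149, 133 and 146 CPM in NaCl and 133, 137 and 159.7 CPM in H89 tumors with full overlap (log2 fold change -0.07, SE 0.09; -0.12 to -0.02 with 1 tumor left out and 0.01 under quantile normalization). Dnajc8, bound to splicing factors, had 108, 104 and 94.4 CPM in NaCl and 95.2, 94.3 and 90.8 CPM in H89 tumors, where the lowest NaCl tumor lay between the H89 values (log2 fold change -0.20, SE 0.09, unadjusted p = 0.0615). Dnajc12, a co-chaperone of amino acid hydroxylases, was scarce, with 0.757, 0.850 and 0.897 CPM in NaCl and 1.61, 0.814 and 1.26 CPM in H89 tumors and overlapping groups (log2 fold change 0.49, SE 0.32; 0.21 without H89 tumor 1, 0.30 with limma on log2(CPM + 0.5) and 0.08 under quantile normalization).

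The CPM ranges of the groups were apart for 5 of the 24 DNAJC genes tested (beside 30.5% of all genes), 4 of them higher in H89 tumors (beside 20.5%). Dnajc7 (TPR2, chr11:100582818-100620168), which passes clients between HSP70 and HSP90, had 69.0, 79.0 and 77.3 CPM in NaCl and 94.5, 88.0 and 91.5 CPM in H89 tumors. All H89 values were above all NaCl values (log2 fold change 0.21, SE 0.08, unadjusted p = 0.0360). Dnajc1 (ERdj1, chr2:18195654-18392830), a membrane protein of the endoplasmic reticulum that binds ribosomes, had 42.3, 40.9 and 41.7 CPM in NaCl and 45.8, 52.2 and 52.1 CPM in H89 tumors. It too was higher in every H89 tumor (log2 fold change 0.19, SE 0.08, unadjusted p = 0.0399), as was Dnajc16, also of the endoplasmic reticulum, with 14.0, 14.1 and 14.6 against 15.6, 17.7 and 17.5 CPM (log2 fold change 0.18, SE 0.10, unadjusted p = 0.126; 0.11 under quantile normalization). Dnajc4 (chr19:6987911-6992572), a mitochondrial J-domain protein, went the other way, with 15.5, 16.0 and 18.1 CPM in NaCl and 14.4, 12.4 and 14.1 CPM in H89 tumors (log2 fold change -0.35, SE 0.13, unadjusted p = 0.0246). Dnajc25, whose groups met after TMM scaling, was the other one, with 13.6, 12.9 and 13.0 against 16.0, 14.2 and 15.1 CPM (log2 fold change 0.13, unadjusted p = 0.323), and for each of the 5 genes the exact permutation p was 0.1. On the other strand, exons of Dnajc7 overlap those of Cnp and Nkiras2, and exons of Dnajc1 overlap those of Mllt10.

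Hspbp1, which opens HSP70 for nucleotide exchange, had 69.8, 62.2 and 52.1 CPM in NaCl and 64.8, 52.0 and 48.6 CPM in H89 tumors, and Hspbap1, a protein that binds Hspb1, had 8.08, 10.8 and 11.1 and 10.1, 9.29 and 7.85 CPM. Groups overlapped for both genes (log2 fold changes -0.22, SE 0.16, and -0.20, SE 0.18). Without H89 tumor 1 they were -0.39 and -0.32, without H89 tumor 3 -0.12 and -0.08, and without NaCl tumor 1 -0.10 and -0.32, and that of Hspbap1 was -0.12 without NaCl tumor 3 and -0.31 under quantile normalization.

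Grouped by compartment, the mitochondrial chaperones, 10 genes of which 9 were tested, had a log2 fold change below 0 in all 9 (from -0.41 to -0.11, median -0.21) and in 8 of 9 under quantile normalization, where 6480 of all 13118 genes were below 0 under TMM scaling. With any 1 tumor left out all 9 were below 0, with medians from -0.29 to -0.17. An unadjusted p under 0.05 was found for 3 of them, Hspa9, Dnaja3 and Dnajc4, all lower, or 33.3% beside 25.0% of all genes (11.9% lower). The count among these mitochondrial genes was 5 without H89 tumor 1, where the share of all genes was 26.3%. It was 2 without H89 tumor 2 or without H89 tumor 3, where the share of all genes was also below 25.0%. Their summed CPM was 1609, 1739 and 1995 in NaCl and 1455, 1499 and 1646 in H89 tumors, where H89 tumors 1 and 2 lay below all NaCl tumors and H89 tumor 3 lay between NaCl tumors 1 and 2. The chaperones of the endoplasmic reticulum had both signs. Of 14 genes, 7 were above and 7 below 0 (median -0.01, from -0.02 to 0.04 with 1 tumor left out, and 0.04 under quantile normalization), with 1 higher (Dnajc1) and 2 lower (Dnajb9 and Dnajb12) at an unadjusted p under 0.05, together 21.4% beside 25.0% of all genes (1 in all without H89 tumor 2), and summed CPM of 1993, 2129 and 2454 and 2194, 2240.4 and 2518.

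Further J-domain lists overlapped between groups in their sums, and the nuclear and ribosomal one shares Dnajc1 with that of the endoplasmic reticulum. For 9 cytosolic J-domain genes the sums were 602, 569.7 and 639.7 CPM in NaCl and 615, 538 and 660.4 CPM in H89 tumors (median log2 fold change -0.11, or -0.06 without H89 tumor 2 and -0.21 under quantile normalization, with Dnajc7 higher and 0 lower at an unadjusted p under 0.05, or 11.1% beside 25.0% of all genes). With 1 tumor left out, the higher count of this list was 0, or 1 without H89 tumor 3. Its lower count was 1 without NaCl tumor 2 or H89 tumor 3. For 8 genes listed as nuclear or ribosomal the sums were 412, 409 and 395 and 389, 393 and 405 CPM (median -0.12, with Dnajc1, already counted above, higher and 0 lower, or 12.5%). Of the genes so listed, Dnajc14 and Dnajc24 are better known from elsewhere in the cell. The higher count of this list was 0 without NaCl tumor 2 or 3 or H89 tumor 2 or 3. Its lower count was 1 without NaCl tumor 3 and 2 without H89 tumor 1. For the vesicle genes, 3 of 5 tested, the sums were 219.6, 212 and 229 and 204, 227 and 263 CPM, with a median of 0.09 (0.02 without NaCl tumor 1, 0.21 without H89 tumor 1 and -0.04 without H89 tumor 3) and none counted in either direction. Of 4 J-domain genes outside the symbol rule, led by the clathrin uncoating factor Gak with 98.9, 91.3 and 92.1 CPM in NaCl and 82.0, 93.4 and 106 CPM in H89 tumors, none had an unadjusted p under 0.05 (median 0.00).

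**Figure D4:**
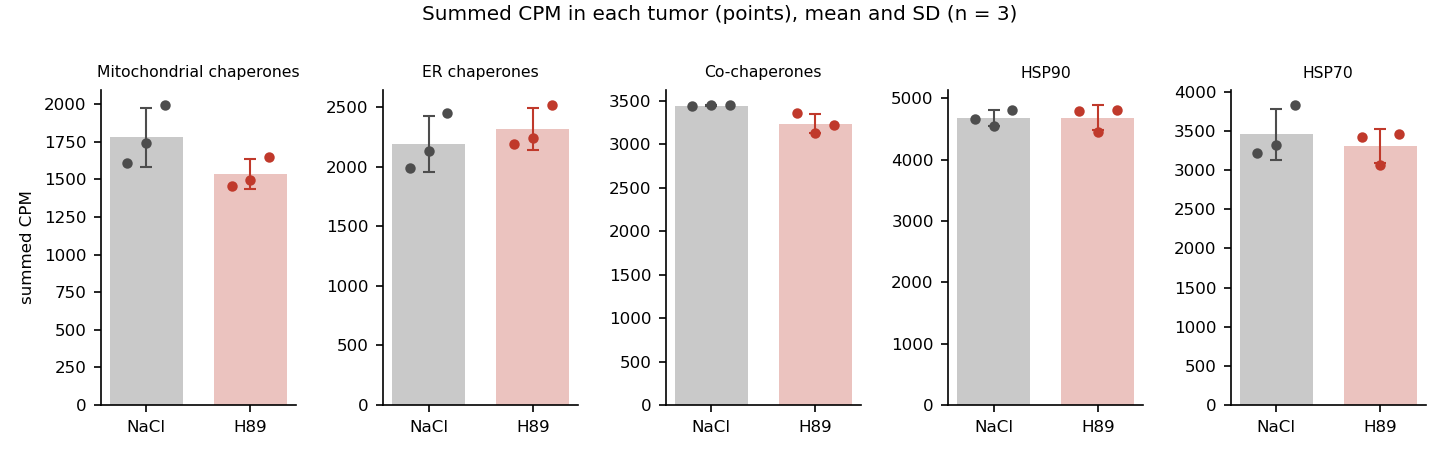
Summed CPM in each tumor (points), with bars for the mean and lines for the SD (n = 3 per group), of the mitochondrial genes, the genes of the endoplasmic reticulum, the co-chaperones outside the symbol rule, and the HSP90 and HSP70 families. The co-chaperone sums of the H89 tumors (3130.4 to 3353) lie below those of the NaCl tumors (3434 to 3446), and the other groups overlap.

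The partners that work with these chaperones but carry other symbols were described from a list of 32 co-chaperones. Their summed CPM was 3434, 3446 and 3445 in NaCl and 3353, 3130.4 and 3217 in H89 tumors, lower in every H89 tumor. At an unadjusted p under 0.05, 1 of 32 was higher and 8 were lower, together 28.1% beside 25.0% of all genes (13.1% higher and 11.9% lower), and 0 passed the adjusted threshold in edgeR's quasi-likelihood test, where 5 did with DESeq2 (Bag1, Ahsa1, Cdc37, Fkbp4 and Ppid, beside 10.9% of all genes). The 8 lower genes were 3 without H89 tumor 2 and 5 without NaCl tumor 2 or H89 tumor 3. The median log2 fold change was -0.13, and -0.07 under quantile normalization. The most abundant, Bag6, which guards tail-anchored proteins, had 353, 308 and 308 CPM in NaCl and 283, 299 and 308 CPM in H89 tumors, with the H89 values at or below the NaCl values (log2 fold change -0.19, SE 0.09). Cdc37, which hands kinases to HSP90, had 212, 203 and 213 CPM in NaCl and 180.2, 162 and 162 CPM in H89 tumors (log2 fold change -0.38, SE 0.10, unadjusted p = 0.00410). The only one counted as higher was Ppid, a cyclophilin of HSP90 complexes, with 92.3, 116 and 109.5 against 145, 143 and 135 CPM (log2 fold change 0.35, SE 0.10, unadjusted p = 0.00985). Cdc37 and Ppid were named after their values were seen.

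The cytosolic chaperonin TRiC and prefoldin, which fold actin and tubulin, were given by 14 genes. Of these, 3 were lower (Cct7, Pfdn1 and Pfdn5) and 0 higher at an unadjusted p under 0.05, or 21.4% beside 25.0% of all genes (11.9% lower), and the median log2 fold change was -0.17, or -0.10 without NaCl tumor 3 and -0.07 under quantile normalization. Tcp1, the most abundant subunit gene, had 486, 522 and 559 CPM in NaCl and 565, 548 and 509.5 CPM in H89 tumors. The summed CPM was 2958, 3179 and 3485 in NaCl and 3084, 3109 and 3099.7 in H89 tumors, with the H89 sums inside the NaCl range.

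Several heat-inducible genes varied widely between the tumors of a group. The list holds 26 known targets of heat shock factor 1, of which 15 belong to the chaperone genes described here. None of the 15 had an unadjusted p under 0.05, and of the 11 others 3 did, all lower (Ahsa1, Fkbp4 and Ubb), together 11.5% of the 26 beside 25.0% of all genes (11.9% lower). Over the 26 genes the median log2 fold change was -0.13, or -0.07 without H89 tumor 2, -0.21 without NaCl tumor 2 and -0.04 under quantile normalization. The 3 lower genes were 1 without H89 tumor 2, and 5 without NaCl tumor 2 or H89 tumor 1. The SD within groups of log2(CPM + 0.5) had a median of 0.13 over the 66 genes and 0.16 over all genes tested. It was 1.09 for Hspa1a, 0.77 for Hspa1b, 0.38 for Dnajb4, 0.38 for Hspa4l, 0.36 for Hspb1, 0.33 for Hsph1 and 0.31 for Dnajb1. Of these variable genes, Hspa1a, Hspa1b, Dnajb4, Hsph1 and Dnajb1 were lowest in tumor 2 of either group, but they differed in which tumor was highest. Hspa4l and Hspb1 were not lowest in tumor 2 of either group, with 9.59, 12.7 and 18.5 against 13.2, 14.9 and 19.4 CPM for Hspa4l. The SD of the other heat-inducible chaperone genes went from 0.05 (Hsp90ab1) to 0.19 (Hspb8). Chaperone genes outside the list also varied, with 0.57 for Hspb7, 0.45 for Hspb2 and 0.33 for Dnaja4. Within the NaCl group 9 of the 15 genes were lowest in tumor 2, 6 in tumor 1 and 0 in tumor 3, and within the H89 group 11 were lowest in tumor 2, 3 in tumor 1 and 1 in tumor 3. Over all genes tested, the shares with tumors 1 to 3 as the lowest were 45.2, 21.4 and 33.4% in the NaCl group. In the H89 group they were 47.0, 24.7 and 28.4%. Over the 66 chaperone genes tested, tumor 2 was the lowest for 25.8% in the NaCl group and 39.4% in the H89 group.

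Immediate early genes, which respond to handling of tissue as well as to growth signals, were read from a list of 18. Their summed CPM was 2196, 2113 and 1977 in NaCl and 1737, 1656 and 2049.7 in H89 tumors, with H89 tumor 3 between NaCl tumors 2 and 3. At an unadjusted p under 0.05, 0 were higher and 4 lower (Fosl1, Junb, Ier2 and Klf4), or 22.2% beside 25.0% of all genes (11.9% lower), and the median log2 fold change was -0.20. Without H89 tumor 3 there were 8 lower genes and the median was -0.38, and the median was -0.12 without NaCl tumor 3, -0.09 without H89 tumor 1 and -0.13 without H89 tumor 2. The transcriptional regulator gene Ier2 alone passed the adjusted threshold (1 of 18, beside 1.59% of all genes), with 68.8, 68.9 and 73.8 CPM in NaCl and 50.4, 52.7 and 49.4 CPM in H89 tumors (log2 fold change -0.54, SE 0.08, Benjamini-Hochberg adjusted p = 0.0407 with the quasi-likelihood test of edgeR), and with any 1 tumor left out 0 genes of the list passed it. With DESeq2's Wald test Fosl1, Ier2 and Klf4 passed (3 of 18, beside 10.9% of all genes). Egr1, the most abundant, had 369, 405 and 333 CPM in NaCl and 253, 289 and 455 CPM in H89 tumors. In the NaCl group tumors 1 to 3 were the lowest for 4, 7 and 7 of the 18 genes, and in the H89 group for 6, 10 and 2. The cold-inducible genes Rbm3 and Cirbp summed to 595, 637 and 633 CPM in NaCl and 610.1, 594 and 574 CPM in H89 tumors, of which Rbm3 gave 570.4, 613 and 614 and 591, 569 and 549 CPM. The part of tissue handling or temperature in the heat-inducible values was not tested.

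**Figure D5:**
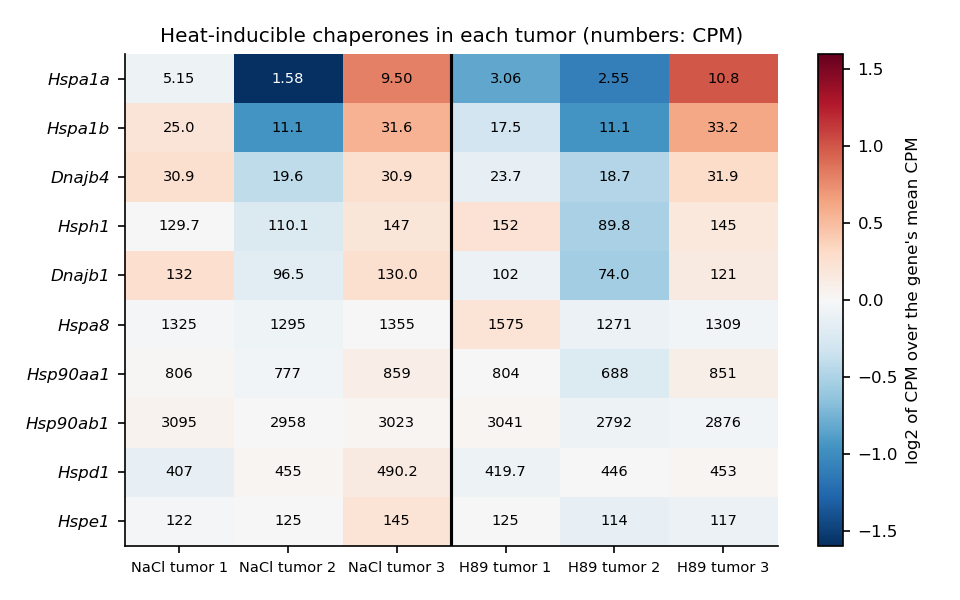
A choice of 10 of the 15 heat-inducible chaperone genes (rows) in the 6 tumors (columns), with CPM printed in each cell. Color gives the log2 ratio to the gene's mean CPM over the tumors. Not shown are Dnaja1, Hspa4, Hspa4l, Hspb1 and Hspb8, of which only Hspb8 was lowest in tumor 2 of both groups. Hspa1a and Hspa1b are blue (low) in tumor 2 and red (high) in tumor 3 of both groups, whereas Hsp90ab1 (2792 to 3095 CPM) is nearly even.

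The promoter windows of all genes were searched for heat shock elements, as a description. A window was available for 61 of the 76 genes, covering 250 bases before to 50 bases after the start. The 2-unit element was in windows of 16 of 61 genes (26.2%), beside 17.0% of all 27025 genes. The 3-unit element, GAA and TTC alternating with 2 bases between the units, starting with either unit, was in windows of 4 of 61 (6.56%) beside 0.662% of all genes, and every 3-unit match contains 2-unit matches. Of the 12 heat-inducible genes with a window, 9 had a 2-unit and 3 a 3-unit match, against 7 and 1 of the 49 others. The genes with a 3-unit match were Hspd1 and Hspe1, which share theirs, Dnajb6 and Hsph1. Those of the last 2 are shown with 30 bases each, at chr5:29735843-29735872 (plus strand) and chr5:149636287-149636316 (minus strand, after the start), both within exons of their own gene, beside the 2-unit match of Hspb6, the gene with the lowest log2 fold change, at chr7:30553170-30553199 (plus strand, outside exons). Capitals mark the match, and the build is GRCm38.p6.
Dnajb6: cagctccgaGAATCTTCCGGAAcgctagac
Hsph1: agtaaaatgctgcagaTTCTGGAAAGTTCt
Hspb6: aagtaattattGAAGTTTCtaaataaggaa

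The genes with the longer of these elements differed in their spread within groups. Whether the elements had a part in that spread was not tested. Hspd1, Hspe1 and Dnajb6 had SDs within groups of 0.10, 0.11 and 0.13 on the log2 scale, against 0.33 for Hsph1, and the variable Hspa1a and Hspa1b carry the 2-unit form in this window. A match is a stretch of letters and not a measured site of binding.

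Of the 10 genes below the minimum, 8 were above 0 in at least 1 tumor: Dnajb13, Dnajb3, Dnajb7, Dnajc28, Dnajc5b, Dnajc6, Hspb3 and Hspb9. Dnajb7, named after its values were seen, was at 0.275, 0.369 and 0.251 CPM in NaCl and 0.631, 0.375 and 0.550 CPM in H89 tumors, or 8, 10 and 7 and 18, 12 and 17 counts, with every H89 value above every NaCl value (exact permutation p = 0.1), and its groups met after TMM scaling. Dnajc6, a neuronal factor that uncoats clathrin vesicles, was at most 0.129 CPM and Hspb3 at most 0.111 CPM.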

How the data were processed

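The deposited table gives, per gene and tumor, estimated counts that the authors made from the reads. The submitters' processing notes name kallisto, GRCm38 and DESeq2, without versions, and the authors' methods give DESeq2 with Bonferroni adjustment. The table is called TPM, but its values sum to between 27067349 and 31958793 per tumor and were used as estimated counts. Of its genes, 267 columns were named one by one and the others were read the same way.

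The members and lists were chosen with earlier results of these data known. Rounding gave whole numbers for the tests. Genes with a mean of at least 0.5 CPM over the 6 tumors were tested with edgeR 4.0.16 (R 4.3.3), with TMM factors of 0.956, 0.991 and 0.981 for NaCl and 0.983, 1.03 and 1.06 for H89 tumors, the quasi-likelihood test and Benjamini-Hochberg adjustment. Alternatives were DESeq2 1.42.0, RLE factors, quantile normalization or log2(CPM + 0.5) with limma 3.58.1, no minimum, a minimum of 5 CPM, a block for the tumor number, and fits without each tumor in turn. The tests were checked on simulated data.

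Named with values were Hsf1, Hsf2, the 2 most abundant members of each family, 6 heat-inducible members, any past the adjusted threshold, the 8 with the smallest p in each direction, and the most abundant gene of each list. Other genes named were chosen after their values were seen. Positions and transcript lengths came from GENCODE M21, which need not be the authors' annotation. All 76 members matched, and exons of 29 overlapped another gene's, so their counts are uncertain. Promoter windows came from RefSeq (GRCm38.p6). Members without a window were Dnajc18, Dnajc5b, Hspa13, Hspb2, Dnajc11, Dnajc30, Dnajc22, Hsp90ab1, Hsf1, Dnajc5, Hsp90aa1, Dnajc2, Hspa9, Hspa8 and Dnajc12. Python 3.11.15 was used for summaries.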

Additional observations from a re-analysis of the deposited data

How the results depend on the processing

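Of the log2 fold changes of the 33 named genes under the alternatives, 402 kept direction and side of the threshold, 18 changed sign and 5 passed the adjusted threshold, the last with DESeq2. No alternative other than DESeq2 (5 of 66) gave a member past the adjusted threshold. Over all genes the adjusted count was 208, against 1396 with DESeq2, 251 with RLE factors, 88 with quantile normalization, 311 without a minimum, 197 at a minimum of 5 CPM, 261 with limma, and 0 to 12 with 1 tumor left out.

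The 10 genes at an unadjusted p under 0.05 became 5 to 12 with 1 tumor left out, where the share of all genes went from 25.0% to between 18.3 and 26.3%. Those higher (4) became 2 without a minimum and 1 to 3 with 1 tumor left out, and those lower (6) became 4 to 10.

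With the tumor number as a block, 0 of 66 members and 0 genes in all passed the adjusted threshold, and 15 members had an unadjusted p under 0.05 (4 higher, 11 lower), beside 28.6% of all genes in that fit and 25.0% without the block. Deviations of same-numbered tumors from their group means correlated at 0.126, 0.0411 and -0.0415, so the numbers were not taken as paired. Not every tumor correlated best with its own number.

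The HSP90 median of -0.13 was 0.08 and the HSP60/HSP10 median of -0.16 was -0.04 under quantile normalization. The DNAJA median of -0.22 was -0.08 at a minimum of 5 CPM (1 gene fewer) and ranged from -0.30 to -0.06 with 1 tumor left out, the DNAJB median of -0.21 from -0.30 to -0.09, the DNAJC median of -0.11 from -0.11 to -0.04, the median of the 2 cofactor genes of -0.21 from -0.35 to -0.10, and that of all 66 genes from -0.14 to -0.04. The small heat shock protein median of -0.18 turned to 0.07 without NaCl tumor 3, and was -0.35 without H89 tumor 1 and -0.09 without H89 tumor 2. On TMM-scaled CPM, the H89 mean minus the NaCl mean of the summed CPM was -744 for all members (-215 on plain CPM), -214 for HSP90 (11.6) and -59.0 for DNAJC (2.11). It was -306 for HSP70 (-144), -50.4 for HSP60/HSP10 (-23.0), -18.3 for DNAJA (-2.05) and -58.7 for DNAJB (-37.0). For the heat shock factors it was 2.14 (7.39), and for Hspa1a and Hspa1b together -3.52 (-1.88).

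Under quantile normalization log2 fold changes changed sign for Dnajc5 (0.01), Hspa8 (0.26) and Hspd1 (0.08), and at a minimum of 5 CPM for Hspa8 (0.03). With 1 tumor left out, they ranged from -0.05 to 0.18 for Dnaja1, -0.06 to 0.08 for Hsf1 (also -0.03), -1.0 to 0.58 for Hspa1a (also 0.18 and 0.26), -0.70 to 0.10 for Hspa1b (also 0.08), -0.14 to 0.06 for Hspa8 (also 0.01) and -0.24 to 0.14 for Hsph1 (also 0.03). The cause was not tested.

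Genes near 0.5 CPM rest on few counts, and Hspb2 fell below the minimum and was not tested without H89 tumor 1. With the minimum at 5 CPM, Hspa12a, Hspb2 and Dnajc12 were not tested.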
